A study of Mus musculus with 8 samples.

Results

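Chromatin sites that opened when EpH4 mouse mammary epithelial cells were cultured with TGF-β were examined here. Those kept were also open in parallel cultures of the Ras-transformed derivative EpRas without TGF-β. FAIRE-seq, the formaldehyde-assisted isolation of regulatory elements, enriches and sequences DNA free of crosslinked protein, so a peak marks a stretch of accessible chromatin. EpH4 cells were kept in 10% fetal bovine serum, and EpRas cells, which carry an oncogenic H-Ras in the EpH4 background, in 4%. Each line was left untreated or was given TGF-β at 1 ng/ml over 8 days, with 2 libraries per group and 8 in all. Each line is a single derivation, so Ras, serum and other differences between the lines cannot be told apart. A site open in more cells and a site more open in each cell cannot be told apart either, nor can accessibility and DNA copy number.

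The 129466 peaks of the 8 lists were merged wherever they overlapped by at least 1 bp, which gave 37230 regions. A region was selected on its calls when both EpH4 TGF-β libraries held it, neither untreated EpH4 library did, and at least 1 of the 2 untreated EpRas libraries did. The rule chose 605 regions, termed Ras-open gains. They were 605 of the 1217 regions gained in EpH4, and gains made up 3.27% of all merged regions. Of the 605, 326 were called in both untreated EpRas libraries and 279 in 1 of them. The calls of 6 libraries therefore define the set, and only the 2 TGF-β-treated EpRas libraries stood outside the rule. With 2 such libraries no test over samples could be made. Shares are given with Wilson 95% intervals that cover counting error only, and differences between sets were not tested.

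The lists differed in length, from 10821 peaks in EpH4 TGF-β replicate 2 to 27337 in EpRas TGF-β replicate 1, and the read depth behind them is unknown. Promoters of 9 epithelial marker genes carried 4 to 6 peaks per EpH4 library and 0 to 4 per EpRas library. The promoter of Cdh1, which encodes the adherens junction protein E-cadherin, was called in every EpH4 library and in no EpRas library. Of 3 basal genes only the keratin gene Krt14 was called, in all 8 libraries. Promoters of 3 endothelial genes carried no peak. Of 5 fibroblast genes Pdgfra was called in 4 libraries, and of 4 immune genes Cd68 was called in 3 EpRas libraries.

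TGF-β signals through a receptor kinase complex that phosphorylates SMAD proteins, which enter the nucleus and bind DNA together with other factors. In mammary epithelium it can drive the epithelial to mesenchymal transition, in which junctions dissolve and matrix and cytoskeletal genes are induced, and oncogenic Ras cooperates with it in EpRas cells. Ras acts through the MAP kinase cascade, one output of which is AP1, a dimer of JUN and FOS family proteins that binds the letters TGAGTCA or the reverse complement TGACTCA. AP1 takes part in opening chromatin at many enhancers, and SMAD proteins are often found beside it.

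The sequences of 6 Ras-open gains are shown because each holds an AP1 match close to its centre and they lie near genes named below. Each run is 200 bases around the region midpoint, 5′ to 3′ on the plus strand of GRCm38.p6 from RefSeq, the build that mm10 names. Capitals mark matches to AP1 and to RUNX, a family of developmental transcription factors searched as TGTGGTT and read as the reverse complement AACCACA where the match lies on the minus strand. The Trpm6 run is chr19:18746687-18746886, intergenic and 3.20 kb from the start site of the magnesium channel gene Trpm6. The Thbs2 run is chr17:14662460-14662659, intergenic and 31.7 kb from the thrombospondin gene Thbs2. The Tnc run is chr4:64098349-64098548, in an intron of the transcript 8030451A03Rik and 51.4 kb from the tenascin-C gene Tnc. The Sparc run is chr11:55405969-55406168, in an intron of Sparc, which encodes a secreted matrix-binding glycoprotein. The Cnn3 run is chr3:121375821-121376020, intergenic and 50.6 kb from the calponin gene Cnn3. The Itgb3 run is chr11:104640984-104641183, over a coding exon of the integrin β subunit gene Itgb3.
Trpm6: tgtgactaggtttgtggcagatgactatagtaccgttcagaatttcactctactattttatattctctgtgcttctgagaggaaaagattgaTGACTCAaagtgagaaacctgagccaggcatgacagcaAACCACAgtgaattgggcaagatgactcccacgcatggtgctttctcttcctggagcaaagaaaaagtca
Thbs2: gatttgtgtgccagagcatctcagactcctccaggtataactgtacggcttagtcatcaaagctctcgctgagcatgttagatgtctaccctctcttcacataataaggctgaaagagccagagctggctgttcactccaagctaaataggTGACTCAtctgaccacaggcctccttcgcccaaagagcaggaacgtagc
Tnc: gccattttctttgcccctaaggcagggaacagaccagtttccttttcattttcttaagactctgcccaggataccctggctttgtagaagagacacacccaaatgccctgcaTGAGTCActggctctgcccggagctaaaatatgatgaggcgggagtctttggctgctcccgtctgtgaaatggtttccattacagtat
Sparc: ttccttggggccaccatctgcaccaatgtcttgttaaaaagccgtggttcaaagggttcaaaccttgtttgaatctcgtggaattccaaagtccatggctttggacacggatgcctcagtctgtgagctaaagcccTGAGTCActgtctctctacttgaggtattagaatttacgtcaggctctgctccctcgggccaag
Cnn3: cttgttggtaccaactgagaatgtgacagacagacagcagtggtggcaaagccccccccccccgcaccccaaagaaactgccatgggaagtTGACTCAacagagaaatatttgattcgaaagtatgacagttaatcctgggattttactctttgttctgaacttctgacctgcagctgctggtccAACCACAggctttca
Itgb3: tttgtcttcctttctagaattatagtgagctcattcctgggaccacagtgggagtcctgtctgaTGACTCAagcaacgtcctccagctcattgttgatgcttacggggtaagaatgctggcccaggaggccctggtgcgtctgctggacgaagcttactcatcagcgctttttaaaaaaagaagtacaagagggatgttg

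The AP1 match of the Trpm6 run is centred 5 bases from the region midpoint, that of the Cnn3 run 6 bases, and those of the other 4 runs between 15 and 54 bases. The Trpm6 and Cnn3 runs each also hold a RUNX match, 33 and 88 bases from the midpoint. Of all 25424 distal regions, 46.7% held an AP1 match in the 500 bp around the midpoint, so such a match is common in open chromatin of these lines.

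The first question was how often a TGF-β gain of EpH4 was also open in untreated EpRas cells. Of the 1217 gains, 605 were, or 49.7% (46.9 to 52.5). That share is the one by which the regions were chosen. The same share over all 37230 regions was 54.2%, and over the 626 regions lost in EpH4 (called in both untreated and neither TGF-β library, 1.68% of regions) it was 58.9% (55.05 to 62.7). In the full lists the share of gains thus lay below both, but the order turned with single EpH4 libraries. Without EpH4 untreated replicate 1, 60.1% of gains, 44.8% of losses and 55.1% of all regions were open in EpRas, and without replicate 2 the shares were 61.2%, 46.7% and 55.3%. Without EpH4 TGF-β replicate 1 they were 43.0%, 72.7% and 56.9%, and without replicate 2 they were 38.98%, 63.4% and 54.8%. With higher-scored peaks they were 57.4%, 61.8% and 46.2%. No order between gains and the other regions can therefore be read from these lists. Of the 5931 regions called in all 4 EpH4 libraries, 90.5% were also called in untreated EpRas cells. Calls in both untreated EpRas libraries gave the same order, with 26.8% of gains, 31.3% of losses and 28.7% of all regions.

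The Ras-open gains ranked somewhat below the middle of the lists that chose them. The score of each peak was expressed as a percentile within its own list, where 100 is the highest score. The median percentile of the members was 43.0 in EpH4 TGF-β replicate 1 and 37.2 in replicate 2. In the untreated EpRas libraries that called them it was 45.2 in replicate 1 and 41.2 in replicate 2. These 4 medians come from libraries that the rule used and are given as a description. An EpH4 untreated peak lay within 1 kb of 6.94% of the members and within 10 kb of 33.4%, against 5.72% and 32.8% of the 612 gains called in no untreated EpRas library (termed the other gains). Most members thus had no untreated EpH4 peak within 10 kb.

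The TGF-β-treated EpRas libraries, which the rule did not use, called most of the Ras-open gains. Replicate 1 called 536 of the 605 (88.6%) and replicate 2 called 418 (69.1%). Both called 399 members, or 65.95% (62.1 to 69.6), and neither called 50, or 8.26% (6.32 to 10.7). Over all merged regions the corresponding shares were 40.3% in both and 22.1% in neither. Among the other gains, 119 of 612 were called in both, or 19.4% (16.5 to 22.8), and 52.3% in neither. The difference between the 2 sets of gains was 46.5 percentage points (41.4 to 51.2, counting error only). The sets had been separated by calls in untreated cells of the same line, so the libraries that split them and those read here share that line. Over all regions, too, the share called in both rose with untreated EpRas calls, from 36.3% with 1 such call to 81.6% with 2. The difference between the sets of gains therefore carries the choice of the sets.

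The losses that were also open in untreated EpRas (369 regions, termed Ras-open losses) give the closest comparison, since they were chosen by the same number of calls with the EpH4 treatment reversed. Of these, 221 or 59.9% (54.8 to 64.8) were called in both EpRas TGF-β libraries and 9.49% in neither. Those intervals overlap the ones of the Ras-open gains. The 5688 regions called in untreated EpRas and in no EpH4 library were called less widely, 30.5% in both and 34.1% in neither. The order of Ras-open gains and losses also turned with single EpH4 libraries. It was 71.1% against 50.3% without EpH4 untreated replicate 1 and 71.2% against 49.7% without replicate 2, and 57.1% against 73.5% without EpH4 TGF-β replicate 1 and 54.2% against 63.5% without replicate 2. The difference between the sets was not tested. In each of these alternatives the Ras-open gains stood above all regions (41.0%, 41.2%, 42.3% and 40.8%) and above the other gains (22.3%, 20.8%, 14.3% and 13.3%). By the rule every member had a call in untreated EpRas and the other gains had none, and all regions included many without one. That order therefore carries the choice of the sets, and shares split by untreated EpRas calls are given below.

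**Figure D1:**
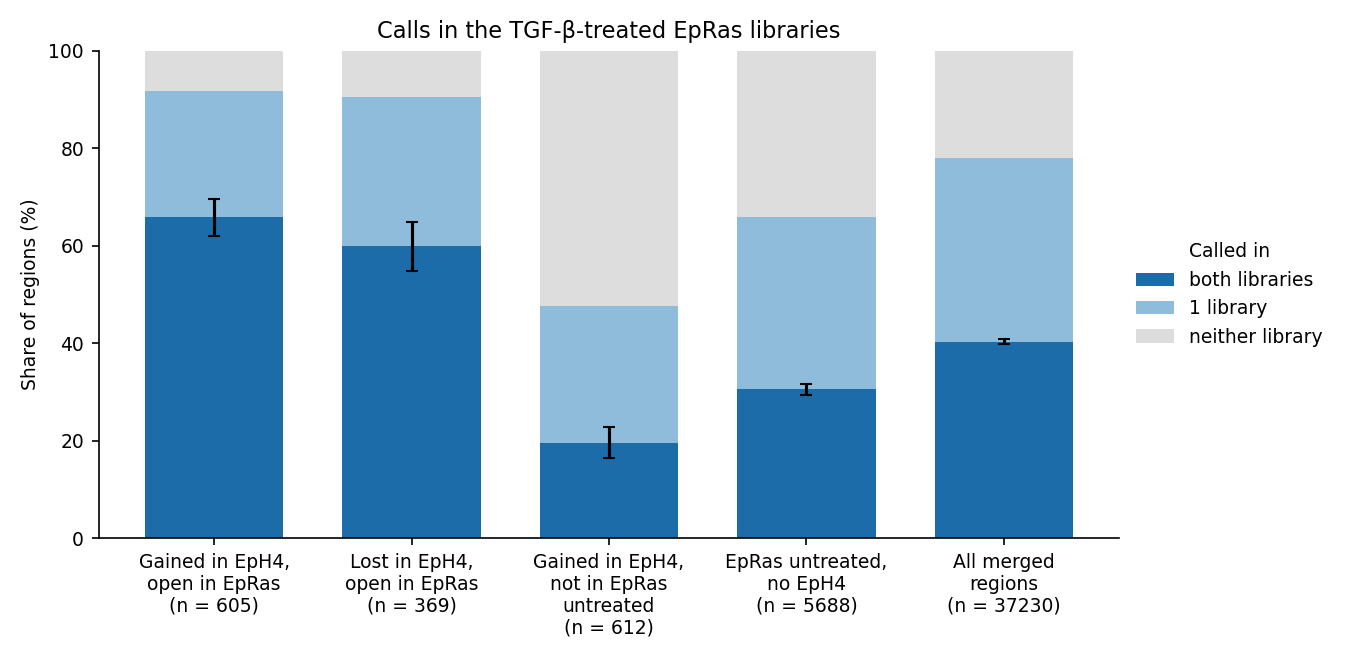
Stacked bars give the percent of regions called in both, 1 or neither TGF-β-treated EpRas library for 5 sets of regions, with Wilson 95% intervals on the share called in both. The Ras-open gains (65.95% in both) and Ras-open losses (59.9%) stand side by side, above all regions (40.3%) and the other gains (19.4%).

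How firmly a site was called in untreated EpRas moved with the share found after TGF-β. Of the 326 members in both untreated EpRas libraries, 258 or 79.1% (74.4 to 83.2) were called in both TGF-β-treated libraries, against 141 of 279, or 50.5%, of those in 1 library. The corresponding shares were 76.5% and 41.0% of Ras-open losses, 55.0% and 23.0% of EpRas regions without an EpH4 call, and 81.6% and 36.3% of all regions. Members called in both untreated libraries therefore stood close to all regions called there. Ranked by their best percentile in untreated EpRas, 51.5% of the lowest-ranked members and 87.3% of the highest-ranked (below 25 and above 75) were called in both TGF-β-treated libraries. The same shares were 41.7% and 79.3% of Ras-open losses and 22.4% and 60.8% of EpRas regions without an EpH4 call, so the increase with rank was common to the 3 sets.

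Unequal list length moves with these values, since the TGF-β-treated EpRas lists are among the longer ones. With every list cut to its 10821 highest-scored peaks, the rule found 404 regions, of which 265 (65.6%) overlapped 265 of the 605 members (43.8%). Of the 404, 43.3% were called in both EpRas TGF-β libraries, against 40.5% of Ras-open losses, 13.1% of the other gains and 30.1% of all regions. The order of the sets was that of the full lists, at lower shares. Membership itself also rests on single libraries. Without EpH4 TGF-β replicate 2 the rule found 2212 regions, without replicate 1 of that group 928, and without EpH4 untreated replicate 1 or replicate 2 it found 1312 or 1349.

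Within EpRas, the percentiles of the members were compared between the untreated and TGF-β lists. The median percentile of called members was 64.8 in TGF-β replicate 1 and 51.0 in replicate 2, compared with 45.2 and 41.2 in the untreated lists. For the 258 members called in all 4 EpRas libraries the medians were 53.1 and 48.2 untreated and 75.4 and 56.3 with TGF-β. A longer list places the same site higher, so all regions were read the same way. Both TGF-β percentiles exceeded both untreated percentiles at 84 of the 258 members, or 32.6% (27.1 to 38.5), beside 27.7% of the 8718 regions called in all 4 lists. Both were lower at 17 members (6.59%), beside 9.03% of those regions. The interval of the members includes the share over all regions. With lists of equal length, 25 of 100 members (25.0%) ranked higher with TGF-β, with an interval of 17.5 to 34.3 beside 18.5% of all regions, and 8 (8.0%) ranked lower, beside 16.9% of all regions.

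**Figure D2:**
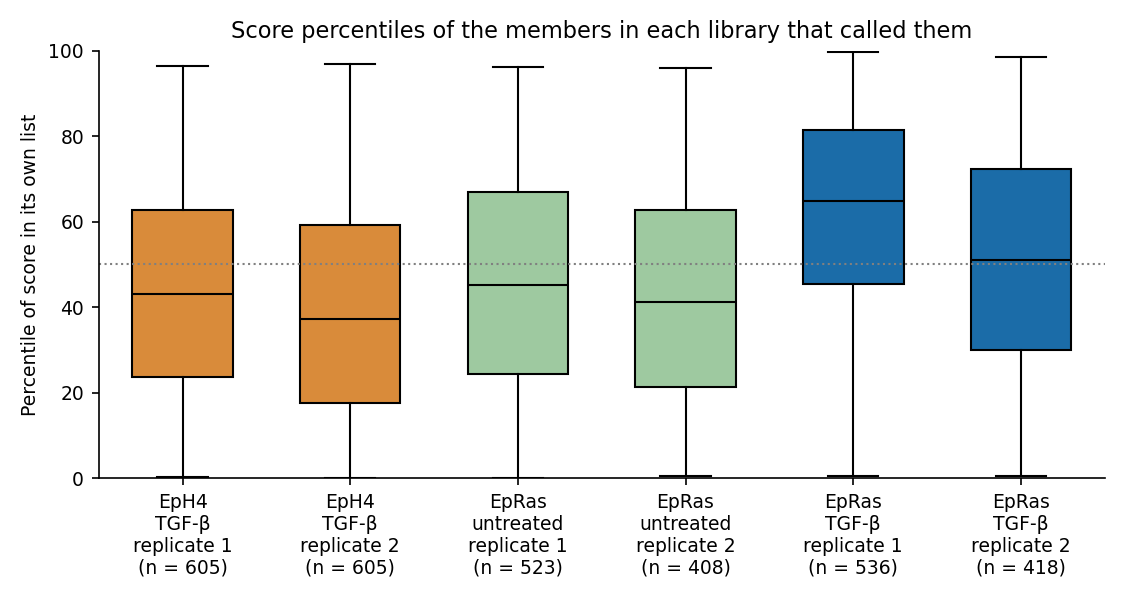
Boxes give the quartiles and whiskers the full range of the members' score percentiles within each of 6 lists, for the members that each list called, and the dotted line marks the middle of a list. The median was 64.8 and 51.0 in the TGF-β-treated EpRas lists and between 37.2 and 45.2 in the other 4.

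Most of the Ras-open gains were distal, meaning more than 2 kb from an annotated start site. There were 376 distal members, or 62.1% (58.2 to 65.9), and 229 promoter members (37.9%). The distal share was 81.4% of the other gains, 58.3% of Ras-open losses, 70.2% of EpRas regions without an EpH4 call and 68.3% of all regions. Gains that were open in EpRas thus held about as many promoters as the losses did, and a larger share of promoters than the gains that were not. By position, 179 members lay in introns, 188 between genes, 5 over coding exons and 4 over untranslated exons. Distal members lay a median of 15.3 kb from the nearest start site, and their median GC content was 47.4%. The median width of a member was 328 bp, compared with 292 bp of the other gains, 324 bp of Ras-open losses and 282 bp of all regions. A merged region spans the peaks of every library that called it, and the sets were not matched for the number of calls.

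Promoter and distal members were read separately in TGF-β-treated EpRas. Both libraries called 142 of 229 promoters, or 62.0% (55.6 to 68.0), and 257 of 376 distal members, or 68.4% (63.5 to 72.8). Over all regions the shares were 47.0% of promoters and 37.2% of distal regions, in the opposite order. Ras-open losses had 55.8% and 62.8%, in the order of the members. In the untreated EpRas lists promoter members had median percentiles of 55.7 and 50.3, distal members with an AP1 match 40.2 and 36.7, and distal members without one 37.9 and 33.2. In the TGF-β-treated lists the medians were 66.5 and 46.4, 70.8 and 56.0, and 55.8 and 46.4 in the same order. Distal members with AP1 thus ranked below promoters in the untreated lists and above them in the treated ones, while those without AP1 did not rank above promoters in any of the 4. Each median covers only the members that its list called. These medians were not taken for other sets, so the change of order cannot be called particular to the members.

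AP1 matches were the feature that most distal members shared. Matches were counted on both strands in the 500 bp around the midpoint, and in control windows 10 kb downstream that touched no peak. AP1 was found in 215 of 376 distal members, or 57.2% (52.1 to 62.1), compared with 6.78% of control windows, a ratio of 8.44. The share was 51.4% in the other gains, 50.2% in Ras-open losses, 39.8% in EpRas regions without an EpH4 call and 46.7% in all distal regions. These sets were not matched for the number of libraries that called a region, and the AP1 share of members rose with EpRas calls, as given below. At least 2 AP1 matches were found in 14.1% of distal members and 9.74% of all distal regions. The matches lay at the centre, with 20.5% of distal members holding one in the 50 bp before the midpoint and 21.0% in the 50 bp after it, and at most 2.4% in any bin of that size beyond 150 bp.

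**Figure D3:**
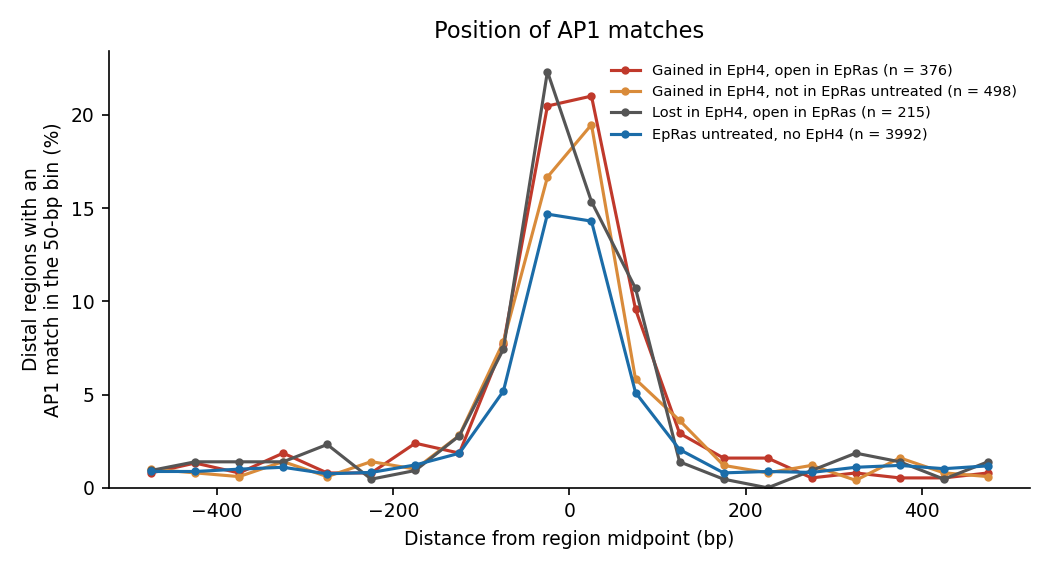
Lines give the percent of distal regions with an AP1 match in each 50-bp bin, by distance from the region midpoint, for 4 sets of regions. In all of them the matches gather within 100 bp of the midpoint, and the Ras-open gains reach 21.0% in the bin after it.

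AP1 moved with the EpRas calls, those that the rule used and those that it did not. It was found in 49.7% of the 179 distal members called in 1 untreated EpRas library and 64.0% of the 197 called in both. Of distal members with an AP1 match, 170 of 215 were called in both EpRas TGF-β libraries, or 79.1% (73.1 to 84.0), against 87 of 161 without one, or 54.0% (46.3 to 61.6). Read the other way, AP1 was found in 66.1% of the 257 distal members called in both libraries, 41.2% of the 85 called in 1 and 29.4% of the 34 called in neither. The split was not particular to these gains. Ras-open losses had 75.0% with and 50.5% without AP1, all distal regions 46.4% and 29.2%, and the other gains 22.3% and 16.9%. Among members that TGF-β-treated EpRas libraries called, those with AP1 had median percentiles of 70.8 and 56.0, and distal members without AP1 55.8 and 46.4.

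Other transcription factor motifs were rarer. RUNX matches were found in 21.5% of distal members and 9.76% of control windows, a ratio of 2.21. TEAD, the partner of the Hippo pathway coactivator YAP, searched as ACATTCC, was found in 13.3% against 7.86%. ETS, a family that the MAP kinase cascade can phosphorylate, searched as CCGGAAG or CCGGAAA or ACGGAAG or ACGGAAA, was found in 10.6% against 6.23%. The E-box that ZEB and SNAIL repressors can bind, CAGGTG, was found in 26.3% of members and 32.5% of control windows, a ratio of 0.81. Over all distal regions the shares of these motifs were 17.9% for RUNX, 12.3% for TEAD, 9.09% for ETS and 29.2% for the E-box.

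The CTCF core, the motif of an insulator protein, was found in 8 distal members, or 2.13% (1.08 to 4.14). It was found in 2.61% of the other gains, 5.58% of Ras-open losses, 10.4% of EpRas regions without an EpH4 call and 5.88% of all distal regions. The interval of the members lies below the share of all distal regions. The SMAD palindrome GTCTAGAC was found in 2 distal members (0.53%), beside 0.52% of all distal regions, 0 of 215 Ras-open losses and 9 of 498 other gains (1.81%). The NF1 palindrome (TTGGC and then GCCAA after 5 bases), the CEBP letters TTACGCAA or TTGCGCAA, and the GRHL letters AACCGGTT were found in 0 of 376, which allows a share of up to 1.01%.

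**Figure D4:**
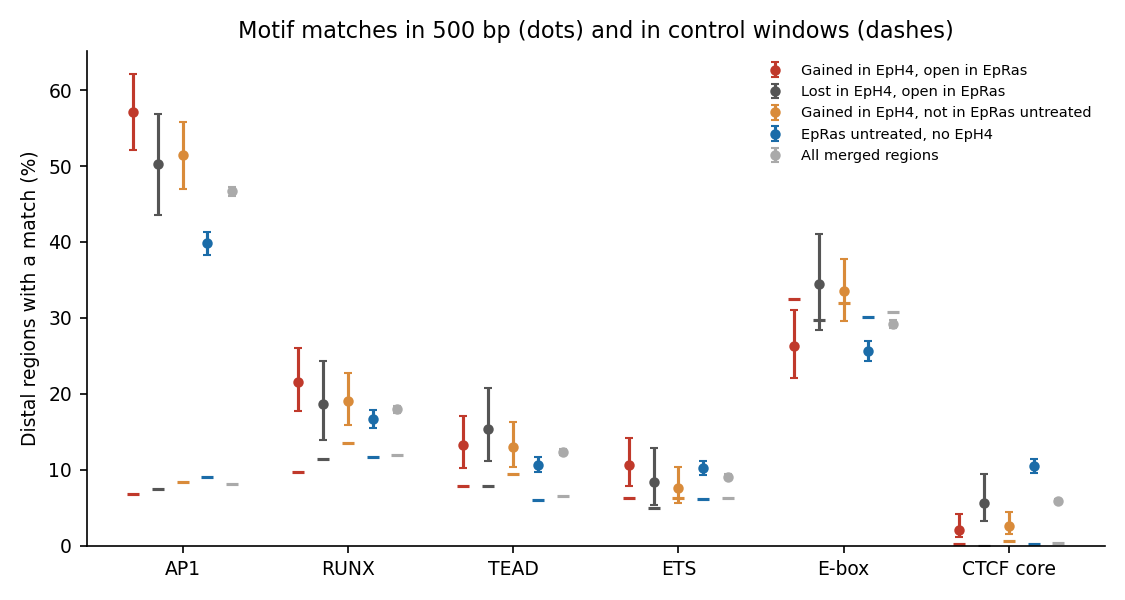
Dots give the percent of distal regions with a match in the 500 bp around the midpoint, with Wilson 95% intervals, and dashes the percent of control windows, for 6 motifs and 5 sets. AP1 stands at 57.2% in the Ras-open gains against 6.78% in their control windows, and the CTCF core at 2.13%.

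Promoter members held other letters. An ETS match was found in 76 of 229, or 33.2% (27.4 to 39.5), beside 31.6% of all promoter regions, and an AP1 match in 37, or 16.2% (12.0 to 21.5), beside 16.1%. Neither share differed from that of all promoter regions by more than its counting interval. In the other gains at promoters, AP1 was found in 29.8% and ETS in 23.7%.

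The members with the highest mean percentile in the EpH4 TGF-β and untreated EpRas lists were mostly promoters, 8 of the first 10. The highest was the promoter of Rpl10a (chr17:28328382-28328670), which encodes a protein of the large ribosomal subunit. Its percentiles were 75.3 and 86.2 in the EpH4 TGF-β libraries, 87.5 in EpRas untreated replicate 1, and 42.5 and 57.2 in the TGF-β-treated EpRas libraries. It was not called in EpRas untreated replicate 2, so the call there is split. The promoter of Nop56 (chr2:130274187-130274510), a core protein of the ribonucleoprotein that modifies ribosomal RNA, had 50.6 and 80.1 in EpH4 TGF-β, 87.3 and 96.0 in untreated EpRas and 94.9 and 74.2 in TGF-β-treated EpRas. The promoter of Rps6kb2 (chr19:4163220-4163540), a ribosomal S6 kinase, had 91.8 and 83.5, then 48.3 and 88.5, then 87.3 and 93.0 in the same order. Both were called in all 6 libraries that could call a member. The promoter of Clpp (chr17:56990112-56990412), a mitochondrial protease subunit, was also called in all 6, between 61.8 and 87.3.

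The other promoters of that group included those of the phosphatase gene Ppm1g, the G protein subunit gene Gna11 and the apoptosis-related gene Xaf1. Of the first 10, the distal ones were near Dact2, an inhibitor of developmental signalling, and Trpm6. The site 31.1 kb from Dact2 (chr17:14172784-14173119) had 96.4 and 76.1 in EpH4 TGF-β, 76.3 in EpRas untreated replicate 1, and 85.5 and 71.1 in TGF-β-treated EpRas. The Trpm6 site shown above had 81.1 and 83.4, then 69.1 in EpRas untreated replicate 1, then 83.4 and 55.1. Among these 10, 4 were called in both untreated EpRas libraries, 7 in both TGF-β-treated ones, and 2 held an AP1 match.

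The strongest members that no TGF-β-treated EpRas library called were again led by promoters. The promoter of Ppm1g (chr5:31220530-31220825) had percentiles of 95.9 and 81.8 in EpH4 TGF-β and 66.4 and 79.5 in untreated EpRas. The promoter of Ddx56, an RNA helicase gene (chr11:6267658-6267950), had 67.9 and 85.0, then 94.3 and 54.9. At these 2 sites the calls ran in opposite directions in EpH4 and EpRas. The rule and the choice of sites without an EpRas TGF-β call fixed that in advance. No EpRas TGF-β library called 3.37% of members held by both untreated EpRas libraries, beside 3.23% of all such regions. The next were intergenic sites far from Pdia4, which encodes a protein folding enzyme (60.5 kb), and P3h2, which encodes a collagen-modifying hydroxylase (129 kb), and a site in an intron of Shb. None of these 5 held an AP1 match.

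Genes of 9 pathway lists, 300 annotated genes in all, were nearest to 26 members, or 4.30%, beside 4.23% of all regions and 7.35% of the other gains. The Ras-open gains thus lay near listed genes about as often as any region. Of the 26, 5 were promoters, 16 held an AP1 match, 15 were called in both untreated EpRas libraries, and 18 were called in both EpRas TGF-β libraries, 7 in 1 and 1 in neither. A nearest gene is a position and does not show which gene a site acts on.

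Matrix genes had 8 members (1.32%), beside 0.666% of all regions and 1.14% of the other gains. Of the 8, 4 were called in both EpRas TGF-β libraries. The Thbs2 site (chr17:14662371-14662749), near the gene of an adhesive matrix glycoprotein, had percentiles of 49.4 and 59.2 in EpH4 TGF-β and 83.0 and 59.6 in untreated EpRas, but 10.5 in EpRas TGF-β replicate 1 and no call in replicate 2. The Tnc site (chr4:64098308-64098590) was called throughout, with 63.9 and 53.9, then 68.9 and 41.0, then 55.0 and 69.2. The site nearest to Thbs1, whose product can activate latent TGF-β, lay 230 kb from its start and had 2.9 and 25.6, then 64.2 and 29.0, then 47.4 and 80.9. The Thbs2 site ranked lower after TGF-β in EpRas, while the Tnc site did not move one way in both replicates. The site in an intron of the laminin chain gene Lamc1 (chr1:153308316-153308549) was the listed member called in no TGF-β-treated EpRas library, and its EpH4 TGF-β percentiles were 3.9 and 9.0. Other sites were the promoter of the collagen gene Col12a1 and a site 117 kb from the protease inhibitor gene Timp3, each called in EpRas TGF-β replicate 1 alone of its pair.

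All 6 members near actin and adhesion genes were called in both EpRas TGF-β libraries. So were 18 of the 26 listed members, 65.95% of all members and 40.3% of all regions, and 6 sites are few. The Itgb3 site (chr11:104640906-104641262) had percentiles of 49.3 and 49.2 in EpH4 TGF-β, 6.2 in EpRas untreated replicate 1 with no call in replicate 2, and 94.0 and 90.0 in TGF-β-treated EpRas. It ranked low in untreated EpRas and high with TGF-β. The site 18.7 kb from Itgb1, the common integrin β subunit gene (chr8:128666620-128667261), had 15.7 and 54.6 in EpH4 TGF-β, 4.7 and 21.4 in untreated EpRas, and 55.2 and 34.4 in TGF-β-treated EpRas. At the Itgb3 site both TGF-β percentiles in EpRas were above the only untreated one. At the Itgb1 site both exceeded both untreated ones, as they did at the site near Cnn3, which encodes an actin-binding calponin. The Cnn3 site had 27.6 and 24.0 untreated and 45.1 and 74.3 with TGF-β. Among regions called in all 4 EpRas lists, which differ in length, 32.6% of members and 27.7% of all regions had this order. At the sites near Lmo7 and Tns4, which encode proteins of adhesion sites, treated and untreated EpRas percentiles overlapped.

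The TGF-β pathway list had 5 members. The site in an intron of Ltbp2, a relative of the latent TGF-β binding proteins (chr12:84846562-84847101), had percentiles of 6.5 and 3.0 in EpH4 TGF-β, 35.9 and 59.4 in untreated EpRas, and 64.5 and 31.7 in TGF-β-treated EpRas. Sites nearest to the activin subunit genes Inhba and Inhbb lay 821 and 17.7 kb from their start sites, and the Inhba site had 6.2 in EpRas untreated replicate 1 and 79.2 and 72.5 with TGF-β. A site 33.6 kb from Smurf2, which encodes a ubiquitin ligase of the pathway, was called in all 6 libraries, between 19.3 and 56.0.

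Ras and MAP kinase genes had 4 members. The promoter of the receptor gene Erbb2 (chr11:98412225-98412559) had percentiles of 26.3 and 7.8 in EpH4 TGF-β, 13.9 in EpRas untreated replicate 1, and 74.7 and 71.1 in TGF-β-treated EpRas. The site nearest to Dusp4, a MAP kinase phosphatase gene, lay at the promoter of the transcript Gm33968, 283 kb away, and had 37.1 and 4.1, then 44.5 in replicate 1, then 81.6 and 84.9. Both sites ranked higher in EpRas with TGF-β than in the 1 untreated list that held them. The site 10.1 kb from Phlda1 (chr10:111516215-111516641) was called in all 6 libraries, between 39.5 and 75.0. The site nearest to Rasa1, a Ras GTPase-activating protein gene, was called in EpRas TGF-β replicate 1 at 70.6 and not in replicate 2.

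The AP1 factor list had 1 member, 26.1 kb from Jun (chr4:95025992-95026323), with percentiles of 93.6 and 62.6 in EpH4 TGF-β, 75.4 and 64.3 in untreated EpRas, and 88.5 and 84.2 in TGF-β-treated EpRas. It was the highest-ranked listed member and itself held no AP1 match. The mesenchymal list had 1 member, the intronic Sparc site (chr11:55405785-55406353), with 70.9 and 86.6, then 5.4 in EpRas untreated replicate 2 with no call in replicate 1, then 84.5 and 65.2. The epithelial list had 1 member, the promoter of Esrp2, an epithelial splicing regulator, with 68.9 and 0.9 in EpH4 TGF-β, 58.9 in EpRas untreated replicate 1 and 2.8 in EpRas TGF-β replicate 1. The lists of ETS and RUNX factors and of the Hippo pathway had 0 members. These lists took 0.357% and 0.355% of all regions, and 5 and 7 of the other gains.

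**Figure D5:**
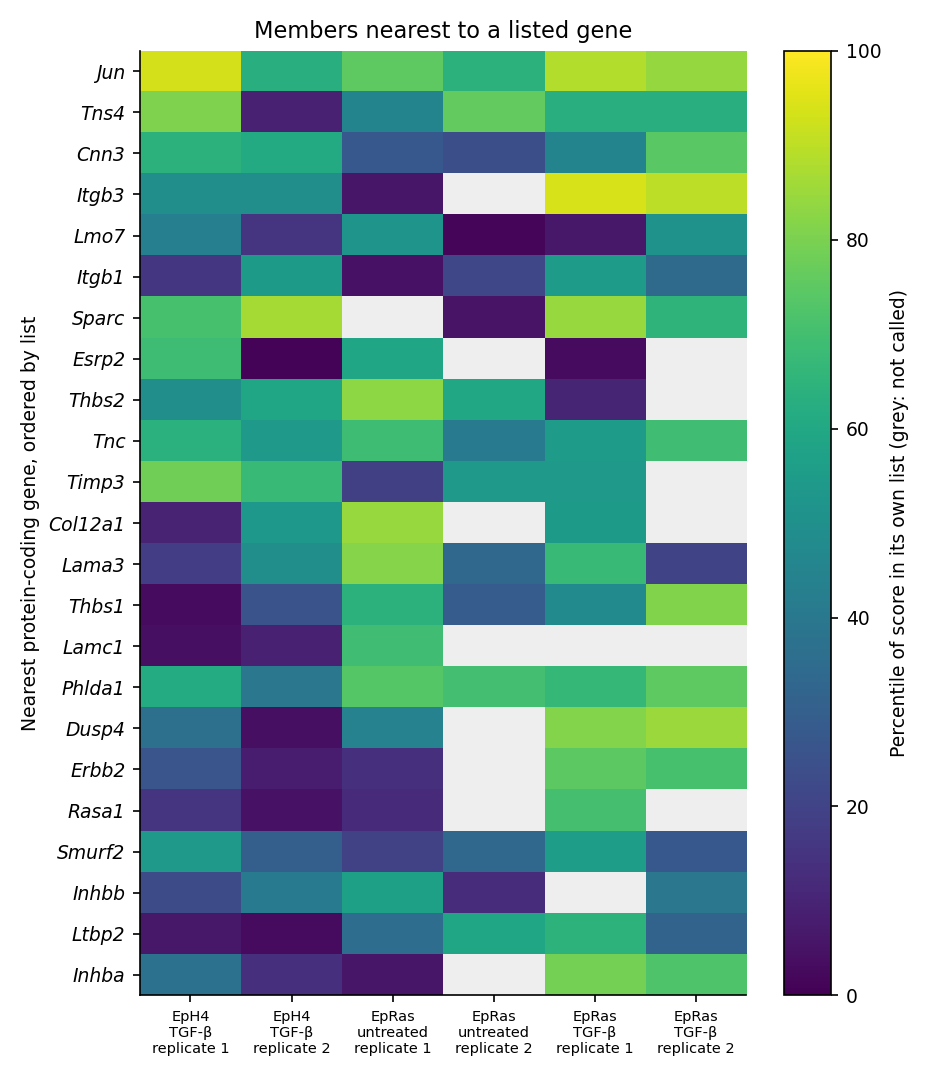
Colour gives the score percentile, within its own list, of 23 members nearest to a listed gene (rows) in 6 libraries (columns), and grey marks no call. The actin and adhesion genes from Tns4 to Itgb1 are called in both EpRas TGF-β libraries, as are 65.95% of all members. Itgb3 goes from 6.2 in untreated replicate 1 to 94.0 and 90.0.

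The members were spread over the genome. They had 583 nearest protein-coding genes, of which 21 were nearest to more than 1 member, and Htra1, which encodes a secreted serine protease, was nearest to 3. Its 3 sites lay on chromosome 7 in introns annotated to Htra1 and Fgfr2, at chr7:130946378-130946726, chr7:130968550-130968918 and chr7:130982356-130982848. All 3 were called in both EpRas TGF-β libraries, with percentiles between 42.7 and 78.0, and 2 of them held an AP1 match. Another member lay within 50 kb of 45 members (7.44%), beside 7.52% of the other gains. By chromosome, 56 members (9.26%) lay on chromosome 4, which held 6.44% of all regions, and 22 (3.64%) on chromosome 5, which held 6.09%. Chromosome 4 held 7.68% of the other gains and 8.39% of EpRas regions without an EpH4 call, and chromosome 5 held 8.17% and 4.68%.

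At the edge of the rule, the members called in 1 untreated EpRas library at the lowest score lay near Pllp and Pdcd6ip and in an intron of Glis1, with percentiles there of 0.1, 0.3 and 1.3. Just outside, the highest-ranked gains with no untreated EpRas call lay near Slc24a2, Ifne and Orm1. Their EpH4 TGF-β percentiles were 90.2 and 95.8, 94.3 and 88.6, and 90.3 and 89.4, and at least 1 TGF-β-treated EpRas library called each of them.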

How the data were processed

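The authors sequenced FAIRE DNA on an Ion Proton, trimmed and mapped reads to mm10 with bowtie2 and called peaks per library with MACS2 2.0.9. The deposited lists gave each peak a position and a score whose meaning was not stated, so the score served for ranks and filters. Input control and duplicate handling were not given in the sources used here. Members and gene lists were chosen with earlier results of these data known. Peaks sharing at least 1 bp were merged (Python 3.11.15, pandas 2.3.3), including 18 mitochondrial peaks. A promoter lay within 2 kb of a GENCODE start site, and nearest genes were protein-coding. Named members were the 10 highest by mean percentile, the 5 highest without an EpRas TGF-β call, those nearest listed genes, genes with at least 3 members, and 3 on either side of the rule. The procedure was tested on simulated data. Alternatives used equal list lengths, higher scores, other merging, a stricter rule, other distances and windows, and single libraries left out. Some named members are not reported here.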

Additional observations from a re-analysis of the deposited data

Results flagged for a closer look

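Of the 326 members called in both untreated EpRas libraries, 11 were called in no TGF-β-treated EpRas library. The rule and this choice fixed in advance that calls were present with TGF-β in EpH4 and absent with it in EpRas. Percentiles of these sites in EpRas untreated replicate 1 ran from 0.5 at the Umad1 site to 94.3 at the Ddx56 site. The 11 sites were 3.37% of the 326, beside 3.23% (345 of 10678) of all regions called in both untreated EpRas libraries. The difference between the lines at these sites was not tested. The 11 sites were nearest to Epb41l2, Ddx56, 0610009B22Rik, Sfmbt2, Artn, Ppm1g, Cdk2ap1, Umad1, Rybp, Mctp2 and Lsm6, and 3 of them were promoters.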

How the results depend on the processing

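No paired analysis was possible because each result is a count or share of peak calls and comes from no test. With lists of equal length there were 404 members, 46.5% of gains were open in untreated EpRas, 43.3% of members were called in both and 25.99% in neither TGF-β-treated EpRas library, the difference from the other gains was 30.2 points, and 56.9% were distal. With peaks scored above the pooled median of 15.51 the values were 329 members, 57.4%, 66.6%, 4.56%, 35.4 points and 47.4%. With both untreated EpRas libraries required they were 326 members, 26.8%, 79.1%, 3.37%, 59.7 points, and an AP1 share of 64.0%. The AP1 share was 51.9% in windows of 200 bp. A listed gene lay within 100 kb of 44 members. Leaving out 1 library at a time gave 408 to 2212 members, 33.5 to 61.2% of gains open in EpRas, 54.2 to 88.6% of members in both and 4.41 to 30.9% in neither treated EpRas library (with 1 treated library left, its own call), differences of 40.9 to 50.5 points, 57.5 to 63.0% distal and 49.9 to 61.1% with AP1. The difference between members and the other gains kept its sign in all of these. That sign carries the choice of the sets, since every member had an untreated EpRas call and the other gains had none. The order of gains against losses, and of members against Ras-open losses, turned with the EpH4 library left out, as given above. The comparison of score percentiles at equal list length, and the shares of the comparison sets under the alternatives, were chosen after seeing the data. Read depth is unknown, so a missing call does not show closed chromatin.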
